A study of Mus musculus with 8 samples.

Results

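Hair follicle stem cells that had lost Bmpr1a were set beside transit-amplifying cells (TACs) that had lost the same gene, to see which differences between the cell types were present in the absence of the receptor. The pair is 2 of the 8 RNA sequencing libraries of the study: the stem cell library of the deleted genotype (cKO) and the TAC library of the deleted genotype (cKO). Of the 22431 gene symbols that both tables list, 12590 had a mean of 1 FPKM or more over the pair and were compared. FPKM scale fragments to transcript length and library size, so levels can be set side by side across genes; across tables they also depend on how the tables are scaled, and each difference is as deposited unless a scaling is named.

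The cKO stem cells were labelled as bulge cells of K15-CrePGR;Bmpr1a fl/fl mice, in which a Cre recombinase fused to part of the progesterone receptor is driven by the promoter of the stem cell keratin gene Krt15. The cKO TACs were labelled as from Shh-CreER;Bmpr1a fl/fl mice (the name of the deposited table gives this driver as CrePGR, and the labels were followed), in which a Cre fused to part of the oestrogen receptor is driven from Shh, a gene of the hair matrix. Each had a control library labelled Het, with the same Cre driver and Bmpr1a heterozygous, and these 4 libraries were taken at postnatal day 68. In addition, TACs of hair bulbs from K15-CrePGR mice were taken at postnatal day 80, with 2 samples labelled WT (52 and 57) and 2 labelled KO (64 and 84). All mice were of mixed strain, and the labels state neither the number of animals in a library nor how the cells were isolated. Cell type, Cre driver, deposited table and library all changed together between the stem cell and TAC sides, so their contributions cannot be told apart. With 1 library a side no test was possible and no difference below has a replicate check.

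As background, the hair follicle keeps its stem cells in the bulge, a quiet zone of the outer root sheath. During growth their descendants in the hair matrix at the base of the bulb divide quickly as TACs and then form the hair shaft and the inner root sheath. Bone morphogenetic protein (BMP) signals pass through type I receptors such as Bmpr1a to Smad proteins; they are known to hold bulge cells at rest and, in the matrix, to be needed for hair shaft differentiation. Wnt and hedgehog signals act in the same cells, with Shh made by the matrix.

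The libraries differed in ways that bear on every value. From the step size of low values, the cKO stem cell library was 1.65 times as deep as the cKO TAC library, and the control stem cell library was 1.94 times as deep as the control TAC library. Ribosomal protein genes held 18.7% of the summed FPKM in the cKO stem cells and 7.49% in the cKO TACs, against 18.5% and 8.49% in the controls. Whole-gene Bmpr1a was 39.3 and 40.4 FPKM in cKO stem cells and cKO TACs and 31.8 and 46.0 FPKM in the controls; reads over the full gene leave the loss of a floxed exon unseen, so this gives no check of the labels. Xist was at 3.98 FPKM in the cKO stem cells and between 68.2 and 102 FPKM in the other 3 libraries, while the Y-linked gene Ddx3y was at 0.255 FPKM in the control stem cells, 23.2 FPKM in the cKO stem cells and 14.8 FPKM in the cKO TACs. The sex make-up of the libraries therefore differed, and its part in the results was not tested. In libraries such as these, fewer cells of a type and less RNA per cell cannot be told apart.

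The cKO libraries of the 2 cell types differed in many genes, though in fewer than the controls did. A gene was counted as different when its log2(FPKM + 1) differed by at least 1, which is 2-fold on that scale and understates the difference of low genes. By this measure 2027 genes (16.1% of those compared) were higher in the cKO stem cells and 2695 (21.4%) were higher in the cKO TACs, while 7868 (62.5%) lay within 2-fold. Among the same genes the control pair had 2180 (17.3%) higher in stem cells and 3276 (26.0%) higher in TACs. The median of the absolute differences was 0.756 in the deleted pair and 0.853 in the controls on the log2 scale. At 4-fold the deleted pair had 919 genes higher in stem cells and 635 higher in TACs, against 1074 and 984 in the controls. Differences are given below as stem cells minus TACs, so that negative values are higher in TACs.

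Which side held more genes depended on how the separately normalized tables were scaled to each other. As deposited, the median gene differed by -0.32 in the deleted pair and by -0.32 in the controls, and the list medians below are to be read against that value. With equal summed FPKM the split was 1502 higher in stem cells and 4789 higher in TACs, with a median of -0.74. Scaling by the median ratio gave 2641 and 1602, with a median of 0.01, and quantile normalization gave 2225 and 2247, with a median of -0.17. Of the genes called as deposited, 563 had a value under 0.333 FPKM in the lower library, which forces a 2-fold call once the mean reaches 1 FPKM, and 246 of them were higher in stem cells.

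Most differences of the control pair were also present in the deleted pair. Of 2260 genes at least 2-fold higher in control stem cells (17.8% of the 12682 whose mean over the 4 libraries reached 1 FPKM), 1606 (71.1%, exact 95% interval 69.1 to 72.9, for counting error only) were at least 2-fold higher in the cKO stem cells as well. A further 636 lay within 2-fold and 18 were at least 2-fold higher in the cKO TACs. For the 3326 genes (26.2%) higher in control TACs, 2134 (64.2%, 62.5 to 65.8) were also higher in the cKO TACs, 1164 lay within 2-fold and 28 were higher in the cKO stem cells. Both intervals treat genes as independent and do not cover differences between libraries or settings. Read the other way, the 1606 shared stem cell genes were 78.6% of the 2044 called in the deleted pair, and the 2134 shared TAC genes were 79.4% of 2689. The 2 pairs have no library in common but use the same tables, so a difference between tables enters both. The larger share on the stem cell side held as deposited but not with equal summed FPKM, where 65.5% of stem cell genes and 80.7% of TAC genes were shared.

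**Figure D1:**
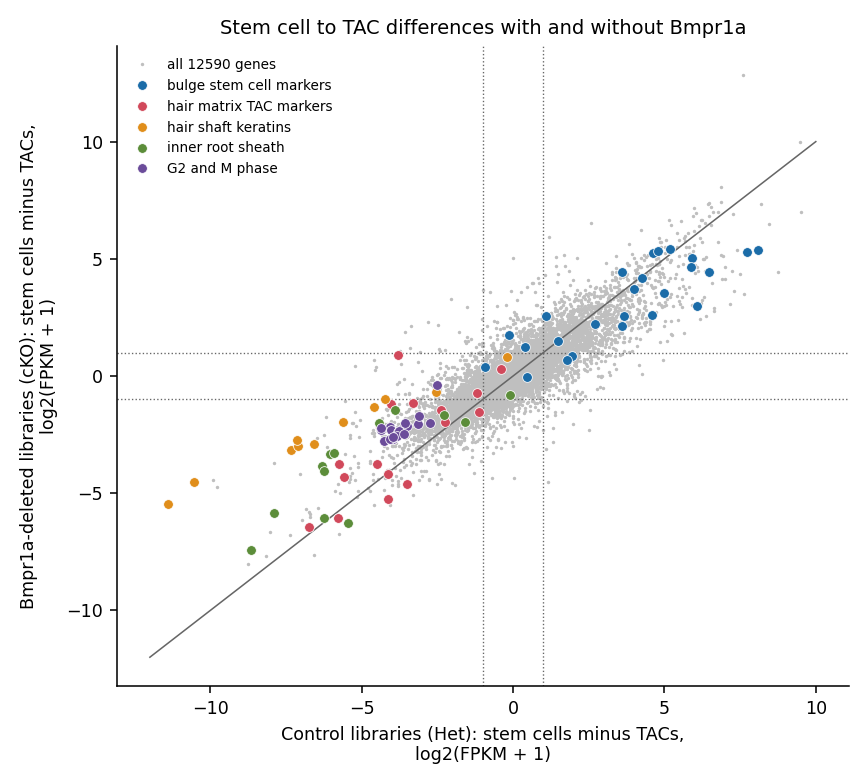
Each point is a gene, with its stem cell minus TAC difference in the control (Het) libraries on the horizontal axis and in the cKO libraries on the vertical axis, both in log2(FPKM + 1). The solid line marks equal differences and dotted lines mark 2-fold. Bulge markers sit mostly at the upper right and matrix, hair shaft and inner root sheath genes at the lower left. Hair shaft keratins (control median -6.58, deleted median -2.74) and G2 and M phase genes (-3.82 and -2.29) lie above the line, most of them nearer to 0 in the deleted pair; these list medians stayed negative under every setting tried.

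The bulge markers separated the deleted cell types clearly. Of 25 markers compared (Fgf18 was under the filter), 21 were at least 2-fold higher in the cKO stem cells and none in the cKO TACs, with a median difference of 2.99; the controls had the same counts with a median of 3.98. The summed level of the markers was 7248 FPKM in the cKO stem cells and 653 FPKM in the cKO TACs, against 13924 and 451 FPKM in the controls. The list median was positive under every setting tried.

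Krt15, the keratin that marks the bulge, was at 7834 FPKM in control and 3075 FPKM in cKO stem cells, and at 86.4 and 141 FPKM in control and cKO TACs. Its difference was therefore smaller in the deleted pair (4.43) than in the controls (6.49), yet both stem cell values lay far above both TAC values. Cd34, a surface protein of the bulge, was at 556 and 147 FPKM in control and cKO stem cells and at 22.1 and 23.4 FPKM in the TACs, differences of 4.59 and 2.60. Krt24, another keratin of resting bulge cells, was at 365 and 46.1 FPKM in the stem cells and at 0.352 and 0.124 FPKM in the TACs. Angptl7, a secreted bulge protein, was at 321 and 57.3 FPKM in the stem cells and 0.509 and 0.507 FPKM in the TACs. These 4 genes were lower in the cKO than in the control stem cells and still at least 4-fold above the TACs of either genotype.

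Several bulge regulators showed no such loss. Sox9, a transcription factor needed to form and keep the stem cells, was at 59.4 and 119.8 FPKM in control and cKO stem cells and at 2.15 and 5.62 FPKM in the TACs, so its difference was 4.26 in the controls and 4.19 without the receptor. Tbx1, a T-box transcription factor of the bulge, was at 123 and 134 FPKM in the stem cells and 2.40 and 2.14 FPKM in the TACs. Nfatc1, which is known to restrain stem cell division, was at 38.0 and 33.4 FPKM in the stem cells and 1.46 and 1.61 FPKM in the TACs. For each of these 3 factors the 2 stem cell libraries stood above the 2 TAC libraries with differences that moved by less than 2-fold between genotypes. Lhx2, a LIM-homeodomain factor of the stem cells, was at 177 and 167 FPKM in the stem cells and 13.9 and 6.75 FPKM in the TACs. Lgr5, an R-spondin receptor of the lower bulge and outer root sheath, was at 55.2 and 70.3 FPKM in the stem cells and 1.31 and 0.891 FPKM in the TACs, and Gas1, a hedgehog co-receptor, was at 113 and 152 against 3.13 and 2.83 FPKM. Of the wider list of 21 bulge and outer root sheath transcription factors, 10 were higher in the cKO stem cells and 1 (Sox4) in the cKO TACs, with a median of 0.94, against 14, 2 and 1.66 in the controls.

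**Figure D2:**
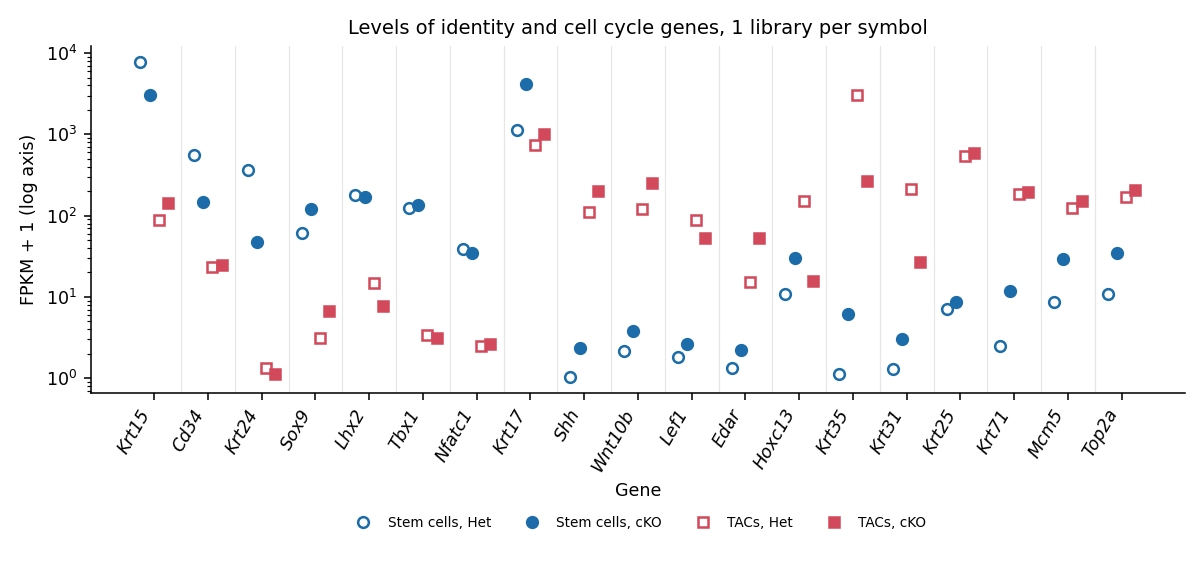
FPKM + 1 on a log axis for 19 genes named in the text, with 1 symbol per library: circles for stem cells, squares for TACs, open for Het and filled for cKO. Krt15, Cd34 and Krt24 are lower in the filled than in the open circles while both circles stay above both squares; Sox9, Tbx1 and Nfatc1 keep their separation. For Hoxc13 the filled circle (28.7 FPKM) lies above the filled square (14.9 FPKM) as deposited, an order that turned with the K15-CrePGR bulbs; Krt35 and Krt31 keep their order with a smaller gap.

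Keratins and adhesion genes of the outer root sheath were mostly on the stem cell side. Of 12 outer root sheath and companion layer genes, 7 were higher in the cKO stem cells and 1 (Krt75) in the cKO TACs, with a median of 2.04; in the controls 6 were higher in stem cells and 4 in TACs, with a median of 1.51. Krt17, a keratin of the outer root sheath and of activated keratinocytes, was at 1119 and 4127 FPKM in control and cKO stem cells and at 740.4 and 1016 FPKM in control and cKO TACs. The control libraries were thus close (a difference of 0.60), while the cKO stem cell library stood well above all others, with a difference of 2.02 that was 0.66 after quantile normalization. Krt14, a basal keratin, was at 4045 and 5659 FPKM in the stem cells and 373 and 531 FPKM in the TACs, and its difference hardly depended on genotype (3.43 and 3.41), although 29.9% of its transcript sequence is shared with other genes. Krt6a, a keratin of the companion layer, was at 607 and 931 FPKM in the stem cells and 20.1 and 30.4 FPKM in the TACs; it shares 66.2% of its transcript sequence with other genes, so its level is uncertain.

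Of 19 basal adhesion genes, which encode integrins, laminins and other parts of the contact with the basement membrane, 14 were higher in the cKO stem cells and none in the cKO TACs (median 1.74), against 13 and 1 (median 1.48) in the controls. Col17a1, a collagen of the hemidesmosome, was at 1322 and 803 FPKM in control and cKO stem cells and 40.9 and 67.4 FPKM in the TACs. Lamb3, a laminin chain, was at 239 and 123 FPKM in the stem cells and 5.53 and 10.03 FPKM in the TACs. Both were highest in the control stem cells. Tnc, the matrix glycoprotein tenascin C, went the other way: it was at 8.23 FPKM in the control and 86.3 FPKM in the cKO stem cells, against 2.46 and 2.42 FPKM in the TACs, so that its difference was 1.42 in the controls and 4.67 in the deleted pair.

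Genes of the epidermis and the upper follicle were measured alongside, because a stem cell preparation can hold such cells. All 14 epidermal differentiation genes were higher in the cKO stem cells than in the cKO TACs (median 3.89), as in the controls (median 6.33). Their summed level was 13872 FPKM in the control and 5430 FPKM in the cKO stem cells, against 189.6 and 255 FPKM in the TACs. Krt10, a keratin of cells that have left the basal layer, was at 4693 and 2026 FPKM in the stem cells and 39.0 and 56.2 FPKM in the TACs. Lor, which encodes loricrin of the cornified envelope, was at 1119 and 42.0 FPKM in the stem cells and 4.68 and 2.78 FPKM in the TACs. Of 7 isthmus and infundibulum genes, 5 were higher in the cKO stem cells and 1 in the cKO TACs (median 2.27), with summed levels of 1434 and 2160 FPKM in control and cKO stem cells and 160.0 and 791 FPKM in the TACs. Krt10, Lor and the other differentiation genes therefore moved with the stem cell side in both genotypes, and their part in the separation of the libraries was not tested.

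On the TAC side, most matrix markers were higher in the TACs with or without the receptor. Of 17 matrix markers, 14 were at least 2-fold higher in the cKO TACs and none in the cKO stem cells, with a median of -2.18; Wnt10a, Ptch1 and Hoxc13 lay within 2-fold. In the controls 16 were higher in TACs, with a median of -4.03. Their summed level was 162 FPKM in the cKO stem cells and 1134 FPKM in the cKO TACs, against 101 and 1271 FPKM in the controls. The list median stayed negative under every setting tried.

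Shh, the hedgehog ligand made by the matrix, was at 0.0420 and 1.33 FPKM in control and cKO stem cells and at 111 and 199 FPKM in control and cKO TACs, differences of -6.74 and -6.43; it shares 25.5% of its transcript sequence with other genes. Wnt10b, a Wnt ligand of the matrix, was at 1.18 and 2.82 FPKM in the stem cells and 120.4 and 251 FPKM in the TACs. Edar, the ectodysplasin receptor, was at 0.341 and 1.22 FPKM in the stem cells and 14.1 and 52.5 FPKM in the TACs. All 3 genes were higher in the cKO than in the control TACs and low in both stem cell libraries. Lef1, the transcription factor that acts with beta-catenin in the matrix, was at 0.813 and 1.66 FPKM in the stem cells and 87.0 and 51.6 FPKM in the TACs, and Dlx3, a homeobox factor of hair differentiation, was at 10.2 and 3.77 against 197 and 86.8 FPKM. Both were lower in the cKO than in the control TACs and still well above the stem cells, with differences of -4.30 and -4.20 in the deleted pair; Lef1 shares 34.4% of its transcript sequence with other genes.

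Of 17 hair lineage transcription factors, 11 were higher in the cKO TACs and none in the cKO stem cells (median -1.37), against 14 and 1 in the controls (median -2.57). Msx2, a homeobox factor and BMP target, was at 6.83 and 2.78 FPKM in the stem cells and 175 and 49.5 FPKM in the TACs, with a difference of -3.74 in the deleted pair. Hoxc13, the homeobox factor that drives hair keratin genes, was among the 6 within 2-fold. It was at 9.95 and 28.7 FPKM in control and cKO stem cells and at 152 and 14.9 FPKM in control and cKO TACs. Its difference was -3.80 in the controls and 0.91 in the deleted pair as deposited. Against the deleted K15-CrePGR bulbs, where Hoxc13 was at 89.9 and 45.0 FPKM in KO 64 and KO 84, the sign turned, with scaled differences of -1.39 and -0.35.

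Most hair shaft keratins kept their direction with smaller gaps. Of 15 hair shaft keratins listed, 11 passed the filter; 8 of them were higher in the cKO TACs and none in the cKO stem cells (median -2.74), against 10 and none in the controls (median -6.58). The summed level of all 15 was 5376 FPKM in the control and 509 FPKM in the cKO TACs, and 8.61 and 27.4 FPKM in control and cKO stem cells. Krt35, an early hair cortex keratin, was at 0.141 and 5.18 FPKM in the stem cells and 3092 and 268 FPKM in the TACs. Krt31, a cortex keratin, was at 0.314 and 2.04 FPKM in the stem cells and 213 and 25.9 FPKM in the TACs; it shares 38.5% of its transcript sequence with other genes, so its level is uncertain. For Krt35 and Krt31 the stem cell value was higher and the TAC value lower in the cKO than in the control library, and no stem cell value reached a TAC value. Krt32 went against this order, at 7.41 and 5.26 FPKM in the stem cells and 8.61 and 2.62 FPKM in the TACs. Keratin-associated proteins, which embed the keratins of the shaft, had 52 members in both tables, of which 9 passed the filter. Of these, 8 were higher in the cKO TACs and 1 in the cKO stem cells (median -2.53), with the same counts in the controls (median -3.83). Krtap8-1 was at 0.0955 and 4.43 FPKM in the stem cells and 1065 and 116 FPKM in the TACs. Krtap17-1 was the 1 on the stem cell side, at 8.58 and 61.7 FPKM in the stem cells and 2.56 and 0.883 FPKM in the TACs, a wider gap in the deleted pair (5.06) than in the controls (1.43).

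Genes of the inner root sheath, the other product of the matrix, were also higher in the TACs of both genotypes. Of 13 inner root sheath genes that passed the filter (of 15 found), 12 were higher in the cKO TACs and none in the cKO stem cells (median -3.33), the same counts as in the controls (median -5.91). Summed over all 15, they were at 2513 FPKM in the cKO TACs and 3050 FPKM in the control TACs, against 108 and 91.5 FPKM in the stem cells. In these TAC sums S100a3 alone made 109 FPKM in cKO and 822 FPKM in control. It fell by more than the sum did, so the other members together were not lower in the cKO TACs. Krt25, an inner root sheath keratin, was at 6.18 and 7.79 FPKM in control and cKO stem cells and 546 and 589 FPKM in control and cKO TACs, so its difference was nearly the same in the controls (-6.25) and the deleted pair (-6.07). Krt71, a type II keratin of the same layers, was at 1.48 and 10.9 FPKM in the stem cells and 186 and 194 FPKM in the TACs, with the smaller difference of -4.04 coming with a higher value in the cKO stem cells. Krt73 was at 479.6 FPKM in control and 794 FPKM in cKO TACs and under 4 FPKM in both stem cell libraries. Tchh, which encodes trichohyalin, the granule protein of the sheath, was at 3.52 and 3.08 FPKM in the stem cells and 196 and 313 FPKM in the TACs. Krt25, Krt71, Krt73 and Tchh were no lower in the cKO than in the control TACs, but other members were: Krt28 was at 421 FPKM in control and 254 FPKM in cKO TACs, Tgm3, a transglutaminase, at 34.3 and 6.80 FPKM, and S100a3, a calcium-binding protein of the hair, at 822 and 109 FPKM. Krt27, Padi3, Tchhl1 and Cux1 were also lower in the cKO TACs. In the K15-CrePGR bulbs Krt25, Krt71, Krt73 and Tchh were all lower in both KO than in both WT samples, with Krt25 at 1278 ± 28.9 FPKM (SD, n = 2) in WT and 235 ± 94.4 FPKM (SD, n = 2) in KO. Over the list the median difference between cKO and control TACs was -0.49, against -2.86 for the hair shaft keratins; this difference between the lists was not tested.

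The promoters of shaft and sheath genes are shown because most of those that passed the filter lay on the TAC side. The windows hold the last 100 bases before the RefSeq transcription start (build GRCm38.p6, all on the minus strand, written 5′ to 3′ along the gene), and capitals mark the letters TATAAA, the core of the TATA box.
Krt31, chr11:100050552-100050651: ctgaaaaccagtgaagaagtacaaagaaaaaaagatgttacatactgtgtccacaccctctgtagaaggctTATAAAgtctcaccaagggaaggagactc
Krtap8-1, chr16:89487953-89488052: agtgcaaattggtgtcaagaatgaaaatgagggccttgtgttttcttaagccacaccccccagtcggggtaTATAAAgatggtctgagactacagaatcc
Krt25, chr11:99322952-99323051: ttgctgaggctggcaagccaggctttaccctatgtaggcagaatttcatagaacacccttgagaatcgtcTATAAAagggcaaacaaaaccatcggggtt
Krt71, chr15:101743098-101743197: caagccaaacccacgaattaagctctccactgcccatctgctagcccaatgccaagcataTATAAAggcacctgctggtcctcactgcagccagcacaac
The match began 29 bases before the start in Krt31 and Krtap8-1, 30 in Krt25 and 40 in Krt71. Among 32851 promoters, 5.56% held TATAAA in this window on either strand. This share counts promoters, while the list counts here are of genes with a match in any of their promoters. TATAAA was found in 5 of 9 hair shaft keratins with a promoter in the table, in 33 of 39 keratin-associated proteins and in 8 of 14 inner root sheath genes. These counts include members under the filter, which 9 of the 52 keratin-associated proteins passed. By comparison TATAAA was found in 2 of 19 bulge markers and in 0 of 9 matrix markers. A match is a description of the letters and not a shown site. The motif was chosen for display after the matches of 13 motifs had been seen; the others searched, on both strands, were CCAAT, then TTTGAA, then 3 longer words (TTTNGCGC, which includes every match of TTTGGCGC, and TTTCCCGC), then GGCGGGA, then also GGCGCC, then the word TTTATNG, then the word TTTGNAT, then the word CTTTGAN, then the word TGACTCA, and lastly GTCTAGAC.

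Genes of cell division were higher in the TACs in both genotypes, with a narrower gap in the deleted pair. Of 20 G2 and M phase genes, 19 were at least 2-fold higher in the cKO TACs and none in the cKO stem cells, with a median of -2.29, against 20 and none in the controls, with a median of -3.82. Their summed level was 94.7 FPKM in the control and 339 FPKM in the cKO stem cells, and 1549 and 1676 FPKM in control and cKO TACs. All 20 differences were nearer to 0 in the deleted pair, with a median within-table difference between cKO and control of 1.56 in stem cells and 0.12 in TACs. Top2a, a topoisomerase of dividing cells, was at 10.01 and 33.6 FPKM in the stem cells and 168 and 206 FPKM in the TACs. Bub1, a kinase of the spindle checkpoint, was at 0.948 and 4.82 FPKM in the stem cells and 36.3 and 39.0 FPKM in the TACs. The cKO stem cells thus lay between the control stem cells and both TAC libraries for these genes.

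Of 20 DNA replication genes, 16 were higher in the cKO TACs and 1 in the cKO stem cells (median -1.68), against 19 and 1 in the controls (median -2.76). Mcm5, a subunit of the replicative helicase, was at 7.65 and 28.3 FPKM in the stem cells and 122 and 150.5 FPKM in the TACs. Pcna, the sliding clamp of DNA polymerase, was the 1 gene on the stem cell side, at 179 and 372 FPKM in the stem cells and 26.8 and 26.6 FPKM in the TACs. It shares 38.3% of its transcript sequence with other annotated genes, so its level is uncertain. Among 7 inhibitors of cyclin-dependent kinases, 1 was higher in the cKO stem cells and 3 in the cKO TACs (median -0.56). Cdkn2d, the 1 on the stem cell side, was at 117 and 169.8 FPKM in the stem cells and listed at 0 in both TAC libraries, so no fold is given; an exact 0 in such tables can be a failed estimate. Cdkn2a, which restrains the cell cycle and is known for its part in senescence, was at 0.0392 and 0.780 FPKM in the stem cells and 2.36 and 9.66 FPKM in the TACs.

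The Top2a promoter is shown as the member of the G2 and M phase genes with 3 matches to CCAAT, the core of a box known from cell cycle promoters. Capitals mark CCAAT or its reverse complement ATTGG (100 bases before the RefSeq start, GRCm38.p6, minus strand).
Top2a, chr11:99024190-99024289: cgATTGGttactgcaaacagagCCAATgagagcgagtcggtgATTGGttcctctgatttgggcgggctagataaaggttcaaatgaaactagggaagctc
The matches began 98, 78 and 58 bases before the start. CCAAT was present in 18.9% of all promoters, in 13 of 17 G2 and M phase genes and in 11 of 17 replication genes with a promoter in the table. It was present in 5 of 19 bulge markers and in 1 of 9 hair shaft keratins. As above, the share counts promoters and the list counts are of genes.

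BMP target genes did not separate the deleted cell types in 1 direction. Of 13 that passed the filter, 4 were higher in the cKO stem cells and 4 in the cKO TACs (median -0.79), against 3 and 5 in the controls (median -0.33). The summed level of all 15 listed was 1311 and 529 FPKM in control and cKO stem cells and 1585 and 581 FPKM in control and cKO TACs, so the 2 cKO libraries were alike in this sum and both lay below their controls. Id1, an inhibitor of differentiation and a direct BMP target, was at 297 and 111 FPKM in the stem cells and 358 and 49.2 FPKM in the TACs. Its difference was -0.27 in the controls and 1.16 in the deleted pair, and close to 0 against the KO 84 bulbs. Id3, of the same family, was at 447 and 116 FPKM in the stem cells and 562 and 221 FPKM in the TACs. Id4 differed from these in that it was highest in the cKO stem cells, at 41.9 and 118 FPKM in the stem cells against 8.28 and 9.25 FPKM in the TACs. Smad7, an inhibitory Smad, was at 10.4 and 4.38 FPKM in the stem cells and 26.8 and 14.0 FPKM in the TACs, with TACs higher in both pairs.

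Several ligands and secreted antagonists of the BMP pathway lay on opposite sides. Of 17 components, 4 were higher in the cKO stem cells and 5 in the cKO TACs, against 16.1% and 21.4% of all genes compared. The list median was -0.21, and its sign turned with median ratio scaling, quantile normalization, centring and either K15-CrePGR bulb sample. Among ligands, Bmp4 was at 5.01 and 3.42 FPKM in the stem cells and 45.4 and 73.2 FPKM in the TACs, and Bmp2 was at 13.0 and 9.61 against 42.3 and 65.9 FPKM. Among secreted antagonists, Grem1 was at 151 and 40.0 FPKM in the stem cells and under 0.3 FPKM in both TAC libraries, and Sostdc1 was at 125 and 146 against 19.0 and 21.3 FPKM. The ligands Bmp4 and Bmp2 were thus higher in TACs and the antagonists Grem1 and Sostdc1 higher in stem cells, with and without the receptor. Other members did not follow this order: the ligand Bmp6 was higher in the cKO stem cells (1.25) and the antagonist Fst lay within 2-fold (0.49).

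Most Wnt genes were higher in the TACs, with or without the receptor. Of 16 Wnt feedback genes and targets, 13 were higher in the cKO TACs and 2 in the cKO stem cells (median -2.09), the same counts as in the controls (median -1.74), and 15 of the 16 were called the same way in both pairs. Wif1, a secreted Wnt inhibitor, was at 13.5 and 17.2 FPKM in the stem cells and 232 and 459 FPKM in the TACs. Nkd2, an intracellular feedback inhibitor, was at 2.18 and 0.397 FPKM in the stem cells and 30.4 and 46.5 FPKM in the TACs. The exceptions on the stem cell side were Lgr5, given above, and Sfrp1, a secreted Wnt inhibitor, at 82.0 and 196 FPKM in the stem cells and 4.44 and 4.30 FPKM in the TACs. Sfrp1 was highest in the cKO stem cells and Wif1 highest in the cKO TACs, so both differences were wider in the deleted pair.

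For the hedgehog pathway, 2 of 11 genes were higher in the cKO stem cells and 2 in the cKO TACs. Over all genes compared these shares were 16.1% and 21.4%, so the counts were near those of genes in general. The list median of 0.43 turned negative with equal summed FPKM and with the KO 64 bulbs. The co-receptor Boc was at 63.5 and 36.1 FPKM in the stem cells and 10.7 and 9.29 FPKM in the TACs. Boc, Shh and Gas1 were on the same side in both pairs. The transcription factor Gli3 was not, with a difference of -1.28 in the controls and 0.87 in the deleted pair. The receptor Ptch1 lay within 2-fold in both pairs (-0.40 and 0.29 as deposited). Against the scaled K15-CrePGR bulbs KO 64 and KO 84, Ptch1 was higher in the bulbs (-1.34 and -1.41). Gli3 was at -0.43 and 0.87 there.

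**Figure D3:**
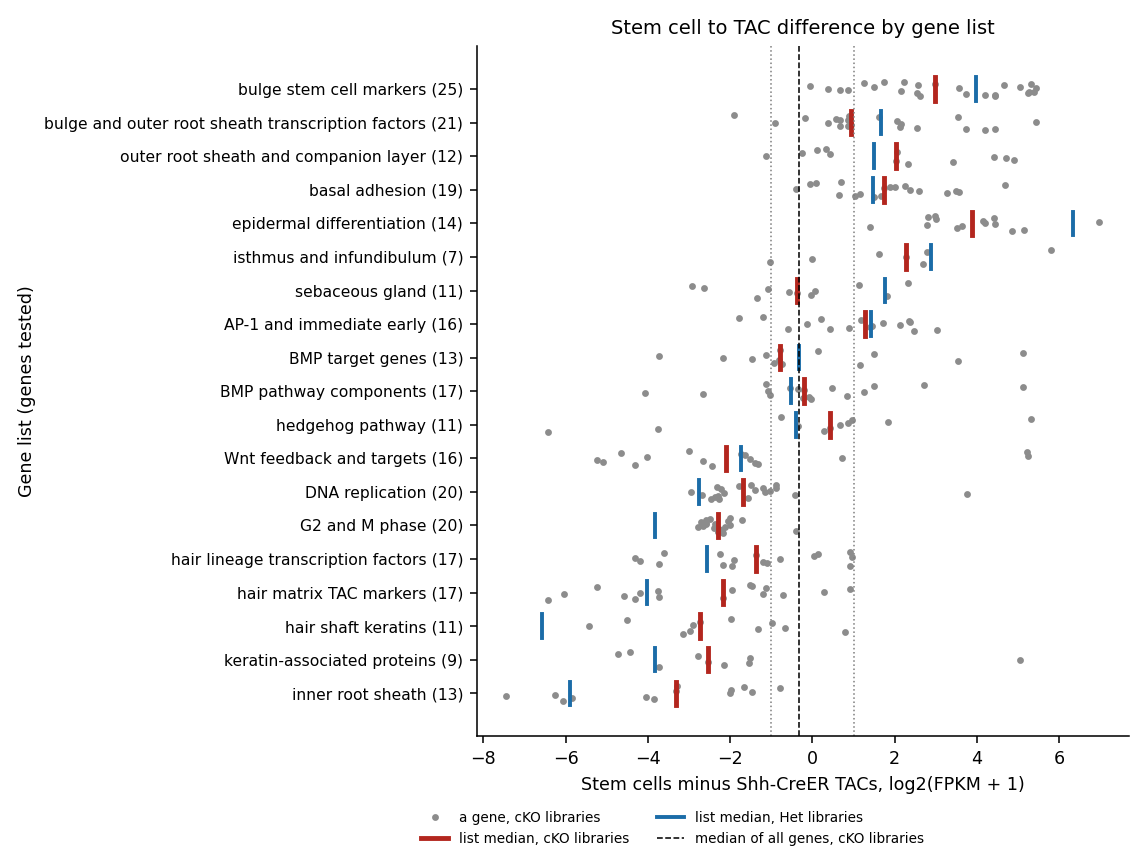
Stem cell minus TAC difference, in log2(FPKM + 1) as deposited, for 19 gene lists. Grey points are genes in the cKO libraries, red bars the list medians in the cKO libraries and blue bars those in the controls; the dashed line is the median of all genes (-0.32) and dotted lines mark 2-fold. Red bars lie nearer to 0 than blue bars for the bulge, matrix, shaft and division lists, and the medians of BMP pathway components, hedgehog pathway and sebaceous gland change sign under another scaling or with K15-CrePGR bulbs as the TAC side.

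Some differences of the controls were absent or turned in the deleted pair. In all, the difference moved by at least 2-fold towards stem cells in 993 genes (7.83%) and towards TACs in 913 (7.2%) of the 12682. Some genes were at least 2-fold higher on one side in the controls and on the other side without the receptor. There were 45 of these among genes that also averaged 1 FPKM or more over the deleted pair. Of these 45, 27 were then higher in stem cells (28 without the added filter) and 18 in TACs. Gjb2, a gap junction protein of growing follicle cells, was at 4.46 and 132 FPKM in control and cKO stem cells and 205 and 98.8 FPKM in control and cKO TACs. It was thus far higher in TACs in the controls (-5.24) and within 2-fold in the deleted pair (0.42), although against the K15-CrePGR bulbs KO 64 and KO 84 it remained higher in TACs (-1.22 and -1.39). Bgn, which encodes the matrix proteoglycan biglycan, was at 2.65 and 149 FPKM in the stem cells and 24.5 and 29.3 FPKM in the TACs. Fscn1, an actin-bundling protein, was at 2.13 and 49.5 FPKM in the stem cells and 31.3 and 10.4 FPKM in the TACs. For Bgn and Fscn1 the cKO stem cell library was the highest of the 4.

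The genes that turned in the other direction included 1 of the upper follicle. Lgr6, a receptor that marks stem cells of the isthmus, was at 22.2 and 22.2 FPKM in control and cKO stem cells and at 3.92 and 46.6 FPKM in control and cKO TACs. The stem cell values were nearly equal, and the difference of 2.24 in the controls and -1.03 in the deleted pair came with the TAC values; the K15-CrePGR bulbs were at 4.86 ± 1.38 FPKM (SD, n = 2) in WT and 31.7 ± 6.33 FPKM (SD, n = 2) in KO. Krt79, a keratin of the infundibulum, was at 522 and 629 FPKM in the stem cells and 68.1 and 638 FPKM in the TACs, so that the 2 cKO libraries were level. Of 11 sebaceous gland genes, 9 were higher in control stem cells and 1 in control TACs (median 1.77). In the deleted pair 3 were higher in stem cells and 4 in TACs, with a median of -0.38 that turned positive with either K15-CrePGR bulb sample as the TAC side. Scd1, a fatty acid desaturase abundant in sebocytes, was at 272 and 98.5 FPKM in the stem cells and 121 and 252 FPKM in the TACs; its difference of -1.35 in the deleted pair was 0.21 and 0.65 against KO 64 and KO 84. Pparg, a regulator of sebocyte and fat cell differentiation, was at 2.29 and 1.19 FPKM in the stem cells and 1.45 and 12.7 FPKM in the TACs. The summed level of the sebaceous genes was 819 and 329 FPKM in control and cKO stem cells and 703 and 1004 FPKM in control and cKO TACs.

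The widest differences of the deleted pair, among genes that averaged 5 FPKM or more and reached 1 FPKM in each library were as follows. On the TAC side they were the fibroblast gene Dcn, Krt73, Shh, Tchh, Krt25, Wnt10b, Krt28, Prr9, Krt35 and Gpx3, a secreted glutathione peroxidase, from -8.00 to -4.92. The minimum in each library left out genes of other cells with differences of like size, such as Fabp4 (-6.67), Col3a1 (-6.40) and Lyz2 (-6.00), which were under 1 FPKM in the cKO stem cells. On the stem cell side Krt77 (759.7 against 5.03 FPKM, 6.98), an epidermal keratin, stood beside genes that included Rpl7, Plp2, Ftl1, Il11ra1, Rplp2, Pebp1, Btf3 and Pgam1, from 7.21 down to 6.65. These last 8 genes share between 38.3% and 94.7% of their transcript sequence with other annotated genes, and Krt77 shares 0.690%. Ftl1, a ferritin chain, was at 1411 and 9.97 FPKM in cKO stem cells and cKO TACs but at 4839.7 and 4851 FPKM in the K15-CrePGR KO bulbs, where the difference had the opposite sign.

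The share of common sequence moved with the stem cell side more broadly. It could be computed for 10997 of the 12590 genes (87.3%), as the percentage of stretches of 31 bases in the longest coding transcript that also occur in transcripts of other genes. Among 1595 genes at or above 20%, 30.7% were higher in the cKO stem cells and 14.98% in the cKO TACs, and the median difference was 0.11. Among 9402 genes under 20%, these values were 13.6%, 22.8% and -0.37. The control pair had medians of 0.01 and -0.37 for the same genes. Of 78 ribosomal protein genes, a family rich in processed copies, 50 were higher in the cKO stem cells and 7 in the cKO TACs (median 1.66), against 42 and 8 in the controls (median 1.29). With the genes at or above 20% left out, 1538 genes were higher in the cKO stem cells and 2456 in the cKO TACs. The sources used here do not say how shared fragments were counted in either table, and the part of this in the differences was not tested.

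The deleted K15-CrePGR bulbs gave a second TAC side that has the same Cre driver as the stem cells, although at another day and in another table, scaled here by the median ratio. Bulge markers were higher in the cKO stem cells against both samples, with medians of 1.66 (KO 64) and 2.98 (KO 84). Matrix markers were higher in the bulbs, with medians of -2.92 and -2.85. Inner root sheath genes (-3.72 and -2.68) and G2 and M phase genes (-1.41 and -1.09) were higher in the bulbs as well. By count, 13 of 17 matrix markers and 10 of 13 inner root sheath genes were at least 2-fold higher in both KO samples. Other lists had smaller shares: 11 of 20 G2 and M phase genes, 6 of 18 replication genes, 5 of 10 hair shaft keratins and 8 of 16 Wnt genes. The replication medians (-0.84 and -0.95) were under 2-fold. Krt15 was at 90.4 ± 39.5 FPKM (SD, n = 2) in WT bulbs and 294 ± 66.9 FPKM (SD, n = 2) in KO bulbs, and Shh was at 19.7 ± 0.199 FPKM (SD, n = 2) in WT and 61.7 ± 15.8 FPKM (SD, n = 2) in KO bulbs. Sox9 was at 2.62 ± 2.25 FPKM (SD, n = 2) in WT and 13.5 ± 1.46 FPKM (SD, n = 2) in KO bulbs. The WT samples differed in sex-linked genes, with Xist at 3.26 and 175 FPKM and Ddx3y at 26.4 and 0.0812 FPKM in WT 52 and WT 57. In KO 64 and KO 84 Xist was at 210 and 226 FPKM and Ddx3y at 0.0259 and 0.753 FPKM. The cKO stem cells set against them had the reverse, with Xist at 3.98 and Ddx3y at 23.2 FPKM. The part of this in the differences was not tested. For the KO samples the labels do not say that they are separate animals, so their SD may be technical. Both KO samples were above both WT samples for Krt15, Shh and Sox9, and neither came near the cKO stem cells in Krt15 or Sox9. Lhx2 differed from Sox9 in this, at 152 and 225 FPKM in KO 64 and KO 84, where the difference from the cKO stem cells was -0.14 for KO 84. KO 64 stood apart in markers of other cells: the summed level of the fibroblast genes was 1829.7 FPKM there and between 471 and 589 FPKM in the other 3 bulb samples, and that of the immune genes was 1534 FPKM against 125 to 381 FPKM.

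**Figure D4:**
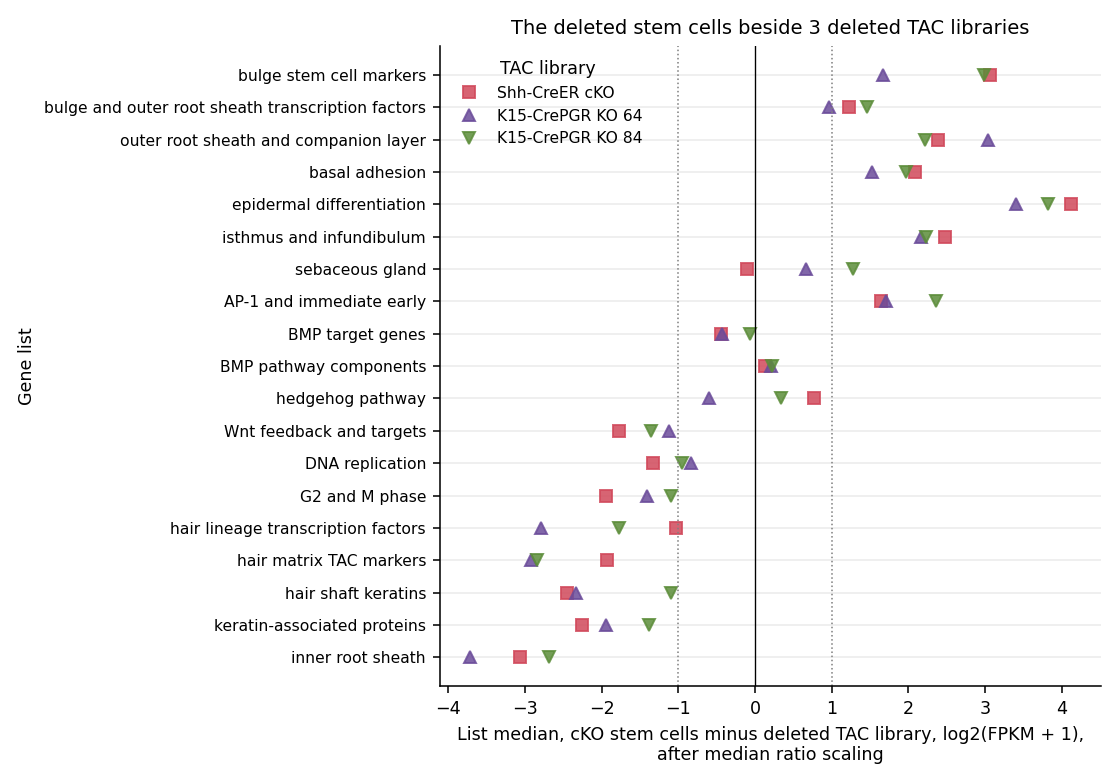
Median difference of each gene list between the cKO stem cells and 3 deleted TAC libraries, in log2(FPKM + 1) after median ratio scaling of the tables; squares are the Shh-CreER cKO library and triangles the K15-CrePGR bulbs KO 64 and KO 84. All 3 symbols lie to the right of 0 for bulge, outer root sheath, adhesion and epidermal lists and to the left for matrix, shaft, sheath, Wnt and division lists. The sebaceous and hedgehog medians fall on both sides of 0, and for BMP pathway components the Shh-CreER median, right of 0 here, was negative as deposited.

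Markers of other cell types were present, mainly in the TAC libraries. Of 9 fibroblast genes, 7 were higher in the cKO TACs and 1 in the cKO stem cells (median -3.65). Their summed levels were 452 FPKM in the cKO stem cells and 1069 FPKM in the cKO TACs, against 239 and 924 FPKM in the controls. Dcn, which encodes decorin, was at 1.77 and 709 FPKM in the cKO pair and made most of the cKO TAC sum. The other members together were not higher in the cKO TACs than in the cKO stem cells. All 7 endothelial genes that passed the filter were higher in the cKO TACs (summed levels over the list of 0.738 and 38.2 FPKM in the cKO pair), and Emcn, Cldn5 and Tie1 were listed at 0 in the cKO stem cells. All 7 were under 0.333 FPKM in the cKO stem cells, so each 2-fold call was fixed once the gene passed the filter. All 5 skeletal muscle genes that passed the filter were higher in the cKO TACs (4.43 and 32.2 FPKM over the list), with the control TACs at 159 FPKM. For 3 of these 5 the call was fixed in the same way. The fat cell gene Fabp4 was at 0.906 and 193 FPKM in the cKO pair, and the haemoglobin gene Hbb-b2 was listed at 0 in both stem cell libraries and at 34.5 FPKM in the cKO TACs. Of 11 dermal papilla genes listed, 5 passed the filter and 4 were higher in the cKO TACs (median -1.57). All 4 were under 0.333 FPKM in the cKO stem cells, which fixed the call. Both fat cell genes that passed, Fabp4 and Lpl, were higher in the cKO TACs (median -4.14), while Adipoq, Plin1 and Cfd were under the filter. Both red cell genes that passed, Hbb-b2 and Alas2, were higher as well (median -3.28), while the globin genes Hbb-b1, Hba-a1 and Hba-a2 were under the filter. By these levels the Shh-CreER TAC libraries held RNA of most of the fibroblast genes and of vessels that the stem cell libraries held at lower levels. For blood the same rests mainly on Hbb-b2, since the whole red cell list summed to 38.3 FPKM in the cKO TACs.

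Other markers moved with genotype inside the stem cell table. The summed level of smooth muscle genes was 11.8 FPKM in the control and 96.2 FPKM in the cKO stem cells, against 53.8 and 32.1 FPKM in the TACs; 3 of 4 tested were higher in the cKO stem cells, with a median of 1.17 that turned negative with the KO 64 bulbs. Acta2, the smooth muscle actin, was at 0.691 and 23.2 FPKM in the stem cells and 16.9 and 9.51 FPKM in the TACs, with a difference of 1.20 that was -0.94 against KO 64, while Des, which encodes desmin, was listed at 0 in the cKO stem cells and Myh11 was under 0.1 FPKM there. Of 6 melanocyte genes, 2 were higher in the cKO stem cells and 1 in the cKO TACs (median 0.66, negative with the KO 64 bulbs). Dct, a pigment enzyme, was at 2.59 and 21.2 FPKM in the stem cells and 82.9 and 15.8 FPKM in the TACs. Summed over the list, the immune genes were at 471 and 336 FPKM in control and cKO stem cells and 442 and 447 FPKM in the TACs, and of 11 tested 2 were higher in the cKO stem cells and 5 in the cKO TACs (median -0.47). Of 5 Schwann cell and nerve genes, 1 was higher in the cKO stem cells and 2 in the cKO TACs (median -0.39, positive with either K15-CrePGR bulb sample). The part of these cells in the results was not tested. Immediate early genes, which respond to handling of cells among other stimuli, were on the stem cell side in both pairs: of 16, 9 were higher in the cKO stem cells and 2 in the cKO TACs (median 1.28), against 9 and 1 in the controls (median 1.42). Fos, a subunit of the AP-1 factor, was at 2291 and 3421 FPKM in the stem cells and 481 and 619 FPKM in the TACs.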

How the data were processed

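RNA from mouse hair follicle cells was sequenced in 8 libraries. The submitters' processing notes name TopHat, Cufflinks and the build mm9; the sources used here give no versions or counting settings. The deposited tables hold FPKM with 1 column per library; the unit FPKM was read from these notes and the values, since the file headers do not name it. The authors made 3 tables (stem cells, Shh-CreER TACs, K15-CrePGR bulbs), taken as normalized separately.

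Tables were joined on gene symbol, keeping the entry with the highest mean where a symbol repeated; 22431 symbols were shared by the stem cell and Shh-CreER tables, of which 2 had other RefSeq identifiers. Genes needed a mean of at least 1 FPKM, and log2(FPKM + 1) was compared at a 2-fold threshold. With 1 library a side no test was run. Sequencing depth is unknown; relative depth was taken from the commonest ratio of values under 0.3 FPKM, a ratio held by 199 of 1918 genes for the cKO pair and 212 of 1921 for the controls. Shared sequence was computed from GENCODE vM21 transcripts, and promoters came from RefSeq (GRCm38.p6). Counting and scaling steps were tested on simulated data. The work used matplotlib 3.10.9, scipy 1.17.1, pandas 2.3.3 and numpy 2.4.6 under Python 3.11.15.

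The comparison and the 31 gene lists were chosen with earlier results of these data known. The rule for named genes took Krt15, Sox9, Shh, Krt17, Hoxc13 and Bmpr1a; from every list, at most 5 members, those averaging 5 FPKM or more (1 FPKM where fewer than 2 did) with the widest difference in the deleted pair; the 10 widest differences each way; and, each way, the 8 genes whose control difference was lost most and the 8 widest in both pairs, with at most 3 of a family. It took 163 genes, of which those described bear on the groups in the text; some are not reported here. Cd34, Fgf18, Krt75, Sox4, Krt79, Id3, Bmp6, Fst, Wnt10a, Ptch1, S100a3, Des and Myh11, as well as Xist and Ddx3y, were named after their values were seen. Alternatives were other pseudocounts, filters, scalings, a 4-fold threshold, summed entries and the K15-CrePGR KO samples as the TAC side. Leaving out genes under 0.333 FPKM in any library, centring on the median gene and leaving out genes with at least 20% shared sequence were added after the data were seen.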

Additional observations from a re-analysis of the deposited data

Results flagged for a closer look

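In 13 of the 163 named genes the difference between the cell types turned with genotype: the gene was at least 2-fold higher in one cell type in the controls and at least 2-fold higher in the other in the deleted pair. Of these 13, 8 were named because their control difference was lost most, so the count follows in part from that choice. Over all 12682 genes, 28 turned towards stem cells and 18 towards TACs. Each of the 13 rests on 4 single libraries, and the difference between genotypes was not tested. The values given are the deleted difference minus the control difference on log2(FPKM + 1), in which a factor common to a table cancels. Towards TACs moved the isthmus receptor Lgr6 (-3.27), the desaturase Scd1 (-2.51), the class II antigen gene H2-Eb1 (-2.21), the cholesterol hydroxylase Ch25h (-4.19), Aif1l (-4.13), Abhd12b (-4.04) and Rab11fip4 (-3.52). Towards stem cells moved the contractile genes Acta2 (4.60) and Tagln (3.58), the actin bundler Fscn1 (5.51), the amino acid transporter Slc7a8 (5.44), the proteoglycan Bgn (5.11) and the phospholipase Pla2g7 (3.67). Tagln shares 53.5% of its transcript sequence with other genes, so its level is uncertain.

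In the K15-CrePGR bulbs, Pla2g7 was at 1.94 ± 0.130 FPKM (SD, n = 2) in WT and 14.7 ± 2.21 FPKM (SD, n = 2) in KO, and Rab11fip4 was at 4.02 ± 0.371 FPKM (SD, n = 2) in WT and 13.3 ± 3.41 FPKM (SD, n = 2) in KO. For Rab11fip4 both deleted TAC comparisons thus had higher values than their controls, while Pla2g7 was higher in the KO bulbs and not in the Shh-CreER cKO TACs (11.3 FPKM in control and 7.91 FPKM in cKO). After scaling, the cKO stem cells lay within 2-fold of KO 64 for Bgn (0.58), Fscn1 (0.47), Slc7a8 (0.88), Acta2 and Tagln. From KO 84 the differences were wider for Bgn (1.31), Fscn1 (1.83) and Slc7a8 (2.56), and within 2-fold for Acta2 and Tagln. Pla2g7 was at least 2-fold higher in the cKO stem cells than in either KO sample. Among genes moved towards TACs, only H2-Eb1 and Aif1l were at least 2-fold higher in both KO samples.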

How the results depend on the processing

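Counts of called genes, shared percentages and the median gene depended on the settings more than directions did. With equal summed FPKM, 4789 genes were higher in the cKO TACs, the median gene was at -0.74, 65.5% of control stem cell genes and 80.7% of control TAC genes were shared, and the medians of bulge transcription factors and G2 and M phase genes were 0.57 and -2.73. Median ratio scaling gave 1602 genes higher in TACs, a median gene of 0.0066, 56.8% of TAC genes shared and a G2 and M phase median of -1.95, and quantile normalization gave a median gene of -0.17. Centring on the median gene gave 1631 genes higher in TACs, 73.1% and 56.5% shared and a G2 and M phase median of -1.97. A pseudocount of 5 gave 1351 and 1554 genes higher in stem cells and TACs, a median gene of -0.23, 65.8% and 56.8% shared, 506 and 434 genes moved towards stem cells and TACs, and a G2 and M phase median of -2.08; a pseudocount of 0.1 gave -0.35, 73.0% and 67.1%. The 4-fold threshold gave 919 and 635 genes, 62.1% and 48.5% shared, and 246 and 195 moved. Without a filter the median gene was at -0.11 and 67.6% of stem cell genes were shared; with a filter of 5 FPKM these were -0.35 and 75.5%, and 587 genes moved towards TACs. Leaving out genes under 0.333 FPKM gave 68.2% and 61.3% shared, and leaving out genes with shared sequence gave 67.9% of stem cell genes and a median gene of -0.36.

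With KO 64 as the TAC side the median gene was at -0.054 and the medians of bulge markers, hair lineage factors, replication genes and G2 and M phase genes were 1.66, -2.79, -0.84 and -1.41. With KO 84 the median gene, replication genes and G2 and M phase genes were at -0.0062, -0.95 and -1.09. Among named genes at least 2-fold apart before or after the change of setting, sign turned against KO 64 for Hoxc13 (-1.39), Scd3 (-4.05), Scd1 (0.21), Acta2 (-0.94), Tagln (-0.47), Pmel (-1.11), Ngfr (0.89), Ftl1 (-1.55), Abhd12b (1.63) and Gjb2 (-1.22). Against KO 84 it turned for Lhx2 (-0.14), Id1 (-0.00055, level with 0), Scd3 (-4.00), Scd1 (0.65), Crabp1 (2.19), Ngfr (1.92), Mbp (1.80), Ftl1 (-1.50), Ch25h (1.23), Abhd12b (2.11) and Gjb2 (-1.39). Among those within 2-fold throughout, it turned against KO 64 for Bmpr1a (0.20), Crabp1 (0.70), Dct (-0.60) and Mbp (0.70), and against KO 84 for Hoxc13 (-0.35) and Bmpr1a (0.32). Under the other 12 settings, all with the Shh-CreER library, it turned for Bmpr1a with median ratio scaling (0.30), quantile normalization (0.17) and centring (0.28), and for Dct (-0.03) and Gjb2 (-0.03) with equal summed FPKM. Of 348 list medians recomputed, 328 stayed within the 95% interval of the list median as deposited. That interval is taken over the genes of a list and does not cover differences between libraries. Lists with too few genes for an interval, such as the smooth muscle and Schwann cell lists, were not counted. The cause of these shifts was not tested.

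No paired analysis was possible because each group of the stem cell and Shh-CreER tables has 1 library, and leaving 1 out would leave no comparison. Depth is unknown in reads, so no floor can be given for genes listed at 0, and low values in the shallower TAC libraries are the least certain.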
